A study of Mus musculus with 30 samples.

Results

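Skeletal muscle was compared with tissues that are not sources of skeletal muscle, heart included. The 2 arrays labelled muscle were set against the mean of 11 tissues (brain cortex, cerebellum, lung, liver, heart, kidney, bladder, small intestine, stomach, large intestine and fat), which have 22 of the 30 arrays. The other 3 tissues of the 15, bone, skin and eyes, were left out of the mean because earlier results of these data showed muscle-like signal in them, and they are described at the end. According to the labels all samples came from C57BL/6 males, 28 weeks of age, while the study's methods give another age. Every array was a two-colour Agilent array of 60-base oligonucleotide probes, with the tissue RNA in Cy3 and one common reference in Cy5. The reference mixed RNA of embryonic stem cells with a purchased pool made from 11 mouse cell lines, 1 of them a muscle myoblast line. The labels say only muscle, the study calls it skeletal muscle, and the sources used here do not name the muscle taken. The labels do not tie an array to an animal. According to the study's methods the replications came from different animals. The series description speaks of one replication for fat and bone, so in those tissues the spread between arrays may be technical. The arrays were made for a study of whether genes that respond to induced transcription factors in embryonic stem cells tend to be specific to adult tissues.

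A skeletal muscle fibre is a fused cell filled with sarcomeres, in which myosin pulls on actin while tropomyosin and troponin gate the contact by calcium. A nerve impulse opens the voltage sensor of the fibre membrane, which releases calcium from the sarcoplasmic reticulum. Fast fibres draw largely on glycogen and slow fibres on oxidation, and heart muscle shares part of this machinery while using its own isoforms of many of its proteins.

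All values are log2(Cy3/Cy5), so 0 means as much signal in the tissue as in the reference, and a difference of 1 is a factor of 2 on that scale. Of the 25030 probes of the authors' table, 21019 were tested, those that some tissue raised well above background in Cy3 on both its arrays. A probe is called higher or lower here at an adjusted p under 0.05 (limma, Benjamini-Hochberg over all probes tested) with a log2 difference of at least 2 from the mean of the 11 tissues. By that rule 820 probes (3.9%) were higher in muscle and 927 (4.41%) were lower. Without the size threshold, 4464 probes (21.2%) passed upwards and 6699 (31.9%) downwards, and the median difference over all probes was -0.13. The probes nearest the size threshold among those past the p threshold lay at 2.001 and 1.999. Only 5048 of the probes tested (24%) have a gene symbol in the study's probe lists, and 15 of the 20 largest positive differences belong to probes without one. Many classical markers of the fibre, such as its main myosins and actin, are therefore not named here.

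The muscle arrays were close to each other. Their Pearson r across the probes tested, which are not independent replicates, was 0.984, the median SD of a probe was 0.08, and 192 probes (0.914%) differed by more than 1 between them. The median Cy3 signal was 101 on muscle 1 and 97.8 on muscle 2, in scanner units, and 59.8% and 61.7% of the probes were above background. Both arrays were scanned on the same day, together with 6 arrays of 4 of the 11 tissues. Against those 6 arrays alone, 818 of the 820 higher probes and 926 of the 927 lower probes kept their sign. On its own slide, muscle 2 could be set against small intestine 1 only, and 811 and 903 kept theirs. The probes were chosen on a mean that holds these same arrays, so their sign was nearly fixed by that choice. With the scan day as a fixed block, 704 of the 820 and 829 of the 927 were still called, and with the slide as a fixed block 603 and 640. The total of lower probes rose under these blocks, to 1817 and 2215, and the higher share of all calls went from 46.9% to 32.6% and 33.3%. Muscle 1 has no other array of the 12 tissues on its slide, so the slide fit rests on muscle 2. No tissue links the scan days or slides of brain cortex, cerebellum, lung, liver, heart, kidney and bladder to those of muscle. A fixed block thus cannot separate these tissues from their batch, and the fit ran only by dropping some block terms. Counts and values with the slide or scan day fixed, here and below, do not show how batch bears on the calls.

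Among 221 probes that the rules or gene lists name, 4 differed by more than 1 between the muscle arrays. Tnni1, the slow skeletal troponin I, stood at 1.54 on muscle 1 and 4.86 on muscle 2. Fmod, a matrix proteoglycan of tendon, stood at 2.46 and -1. The others were Fhl2, at -4.14 and -2.43, and 2410137F16Rik, now Srrm4os, at 4.22 and 3.12. For slow troponin and fibromodulin the arrays differed in opposite directions.

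**Figure D1:**
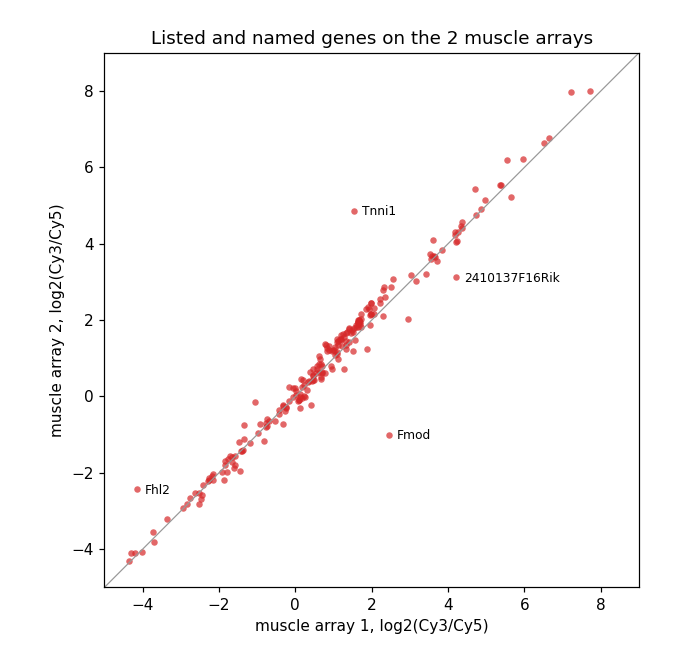
Each point is 1 of 221 listed or named probes, with its log2(Cy3/Cy5) on muscle array 1 (x axis) and muscle array 2 (y axis), and the line marks equal values. Tnni1 lies 3.32 above the line and Fmod 3.46 below it, while all but 4 points lie within 1 of it.

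The named genes with the largest differences included an inhibitor of muscle growth, a methyltransferase and proteins of the fast sarcomere. Both muscle arrays lay above all 22 arrays of the 11 tissues for 1587 probes (7.55%), among them 544 (66.3%) of the 820 higher probes. For 123 probes (0.585%) the muscle mean was also at least 2 above the highest of the 11 tissue means. Of those 123 probes, 25 have a symbol. The promoters of 5 of these genes are shown because they belong to genes high in muscle and far lower in all 11 tissues. Each is the 250 bases before the annotated start, 5′ to 3′, from RefSeq on GRCm38.p6, with capitals on matches to the motifs named after the sequences.
Mstn, chr1:53061390-53061639, plus strand: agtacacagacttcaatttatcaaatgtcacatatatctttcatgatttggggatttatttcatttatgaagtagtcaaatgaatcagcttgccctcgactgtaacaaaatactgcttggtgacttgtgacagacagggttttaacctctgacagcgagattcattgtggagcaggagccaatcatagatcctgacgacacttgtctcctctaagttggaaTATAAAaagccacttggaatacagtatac
Mybph, chr1:134193198-134193447, plus strand: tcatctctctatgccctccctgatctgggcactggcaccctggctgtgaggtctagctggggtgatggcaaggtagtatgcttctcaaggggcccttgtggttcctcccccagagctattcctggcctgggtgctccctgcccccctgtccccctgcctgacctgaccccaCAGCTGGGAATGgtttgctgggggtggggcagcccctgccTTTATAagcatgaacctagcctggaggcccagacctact
Mrln, chr10:70204414-70204663, plus strand: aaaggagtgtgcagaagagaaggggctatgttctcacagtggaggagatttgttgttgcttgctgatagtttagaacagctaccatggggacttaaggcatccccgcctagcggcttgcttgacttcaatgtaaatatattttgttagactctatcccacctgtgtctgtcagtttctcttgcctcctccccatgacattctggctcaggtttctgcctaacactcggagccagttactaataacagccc
Cacna1s, chr1:136052561-136052810, plus strand: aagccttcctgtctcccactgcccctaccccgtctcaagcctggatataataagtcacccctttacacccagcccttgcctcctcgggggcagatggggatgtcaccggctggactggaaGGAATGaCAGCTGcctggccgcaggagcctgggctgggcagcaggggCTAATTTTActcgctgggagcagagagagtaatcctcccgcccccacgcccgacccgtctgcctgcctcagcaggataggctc
Myog, chr1:134289754-134290003, plus strand: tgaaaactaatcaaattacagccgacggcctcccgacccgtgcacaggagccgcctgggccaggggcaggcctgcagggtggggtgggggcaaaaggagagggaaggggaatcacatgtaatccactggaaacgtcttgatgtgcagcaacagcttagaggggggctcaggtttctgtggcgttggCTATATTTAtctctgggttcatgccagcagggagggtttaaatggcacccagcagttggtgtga
The motifs searched, on both strands, were the E-box CAGCTG, the MEF2 motif CTANNNNTA, the TEAD motif CATTCC and the TATA box TATAAA. Mybph holds an E-box from 79 to 74 bases before the start, directly followed by a TEAD match from 73 to 68 bases, and a TATA match from 39 to 34. Cacna1s holds an E-box from 123 to 118, a TEAD match from 130 to 125 and a MEF2 match from 83 to 75. Myog has its MEF2 match from 64 to 56, and Mstn its TATA match from 29 to 24. The Mrln promoter holds no match to the motifs searched. The matches shown do not overlap each other. Of the 25 named genes in the set, 15 have a promoter in the table, and 4, 5, 5 and 4 of them hold the E-box, the MEF2, the TEAD and the TATA motif. Over all 32851 promoters of the same length the shares were 13%, 19%, 12.6% and 12.4%. These shares count single promoters, while a gene of the 15 counts if any of its listed promoters holds the motif. The 2 measures are thus not alike, and the gene counts can be higher for that reason alone.

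Mstn encodes myostatin, a secreted inhibitor of muscle growth. It stood at 7.23 on muscle 1 and 7.98 on muscle 2, while the 22 arrays ran from -0.15 over a median of 0.25 to 1.93. No array of the 11 tissues came within 5 of muscle, and the highest tissue was bladder. The difference from the 11 tissues was 7.25 ± 0.53 (SE, adjusted p = 2.61e-09), and since the probe was above background on 6 of the 22 arrays, the size is not exact. In heart its probe was not well above background, so the fold there is a bound, and muscle was at least 121-fold higher (adjusted p = 7.7e-07). This bound compares the Cy3 level in muscle with the lowest Cy3 level well above background on the heart arrays, and is open to dye bias.

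A530098C11Rik, now Mettl21c, encodes a lysine methyltransferase found in muscle. Its values in muscle were 7.73 and 8, against -0.30, -0.02 and 0.75 for the lowest, median and highest of the 22 arrays. The difference was 7.87 ± 0.27 (adjusted p = 8.25e-13), but the probe was above background on 6 of the 22 arrays, so its size is not exact. Its reference signal was above background on 10 of 30 arrays and that of Mstn on 2, so the size of these ratios depends on the background correction.

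Myog encodes myogenin, a transcription factor that drives the fusion and maturation of muscle precursors. It stood at 1.85 and 2.30 in muscle, and no array of the 22 exceeded -0.58. The difference was 3.76 ± 0.37 (adjusted p = 1.15e-07). Eya1, a co-activator in the transcription of fast fibre genes, stood at 3.41 and 3.20 against a highest value of 1.28 in brain cortex. It differed from the 11 tissues by 4.27 ± 0.18 (adjusted p = 4.35e-12).

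In all, 13 of the 40 listed myogenic regulators had a symbol and passed the filter, and 6 of them were higher in muscle. The other 2 were 2610024B07Rik, now Tead1, a factor that binds the TEAD motif, with a difference of 2.71, and Igfbp5, a binding protein of insulin-like growth factors, with 2.37. The remaining 7 had differences from 0.31 to 1.57, past the p threshold but not the size threshold. They include both activin receptors that bind myostatin, Acvr2a (1.57) and Acvr2b (1.42), and Pax3, a factor of muscle progenitors (1.55). With the slide fixed Acvr2a fell to 0.03 and did not pass (adjusted p = 0.954). The fusion protein Mymk (listed as 1110002H13Rik, 0.31) did not pass in 6 settings, without either muscle array among them (adjusted p = 0.253 and 0.0863). Msc, a repressor of myogenic factors (0.55), did not pass with the slide fixed (adjusted p = 0.134) or without muscle 2 (0.0731), and 4832428D23Rik, now Mettl21e (0.51), with the slide fixed (0.141).

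Actn3, the Z-disc alpha-actinin of fast fibres, had the largest difference of the sarcomere genes. It stood at 4.87 and 4.92, while the 22 arrays ran from -3.44 over a median of -2.90 to 0.14. The difference was 7.49 ± 0.46 (adjusted p = 3.51e-10). Its relative Actn2, which heart uses too, stood at 4.18 and 4.24 in muscle and at 4.82 and 4.93 in heart. Actn2 was higher than the mean of the 11 tissues by 3 ± 0.4 (adjusted p = 4.76e-06), but its muscle and heart arrays were ordered the other way. The probes of this pair of genes share no run longer than 5 bases and match at no more than 19 of 60 positions in any alignment without gaps.

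Mybph encodes myosin-binding protein H of the thick filament. Its values were 4.96 and 5.15 in muscle, and the 22 arrays lay between -0.94 and 0.33 with a median of -0.50. The difference was 5.51 ± 0.42 (adjusted p = 4.96e-09), and in heart the probe was not well above background on either array. 4833419K08Rik, now Myoz3, a Z-disc protein of fast fibres, stood at 4.18 and 4.30 and at most at 2.35 in the 22 arrays. It was called higher (adjusted p = 1.06e-07), but was above background on 2 of the 22 arrays and on neither heart array, so the difference of 4.12 has no exact size. The Cy5 signal of this probe, which reads the common reference, was above background on 12 of 30 arrays.

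The 15 sarcomere probes with a symbol, of 91 genes listed, had a median difference of 3.14. Of them 10 were higher and none was lower, and 13 passed the p threshold upwards. The exceptions were Synpo2, at -0.33 (adjusted p = 0.0534), and Tnnt2, the troponin T of heart and embryonic muscle. Tnnt2 stood at 0.42 and -0.22 in muscle and at 3.89 and 4.06 in heart, and did not pass against the 11 tissues (-0.65, adjusted p = 0.121). It was nearly as high in lung (3.23 and 3.81) and bladder (3.69 and 3.63) as in heart.

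The probes of 3 sarcomere genes with an open reading frame over their whole length are shown, because they stand for a thick filament protein, a myosin light chain and a troponin that differ in where they are high. They are printed 5′ to 3′ as on the array, in lower case throughout.
Mybph probe: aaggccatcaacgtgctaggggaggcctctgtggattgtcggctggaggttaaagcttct
Myl1 probe: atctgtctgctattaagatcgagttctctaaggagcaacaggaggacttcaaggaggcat
Tnnt2 probe: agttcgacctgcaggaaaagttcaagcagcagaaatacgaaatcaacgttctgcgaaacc
Myl1, a myosin light chain of fast fibres, stood at 3.54 and 3.72 in muscle against 2.44 and 2.05 in heart and a median of 0.02 over the 22 arrays. It was higher than the 11 tissues by 3.14 ± 0.36 (adjusted p = 6.46e-07) and higher than heart by 1.38 (adjusted p = 0.0426), but did not pass against the 11 tissues with the slide fixed (2.58, adjusted p = 0.12). Tnni1 was called higher as well (3.18 ± 0.58, adjusted p = 0.000136), but its value rests on the array. It was 4.84 without muscle 1 and 1.52 without muscle 2 (adjusted p = 0.0477), and large intestine reached 4.62.

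**Figure D2:**
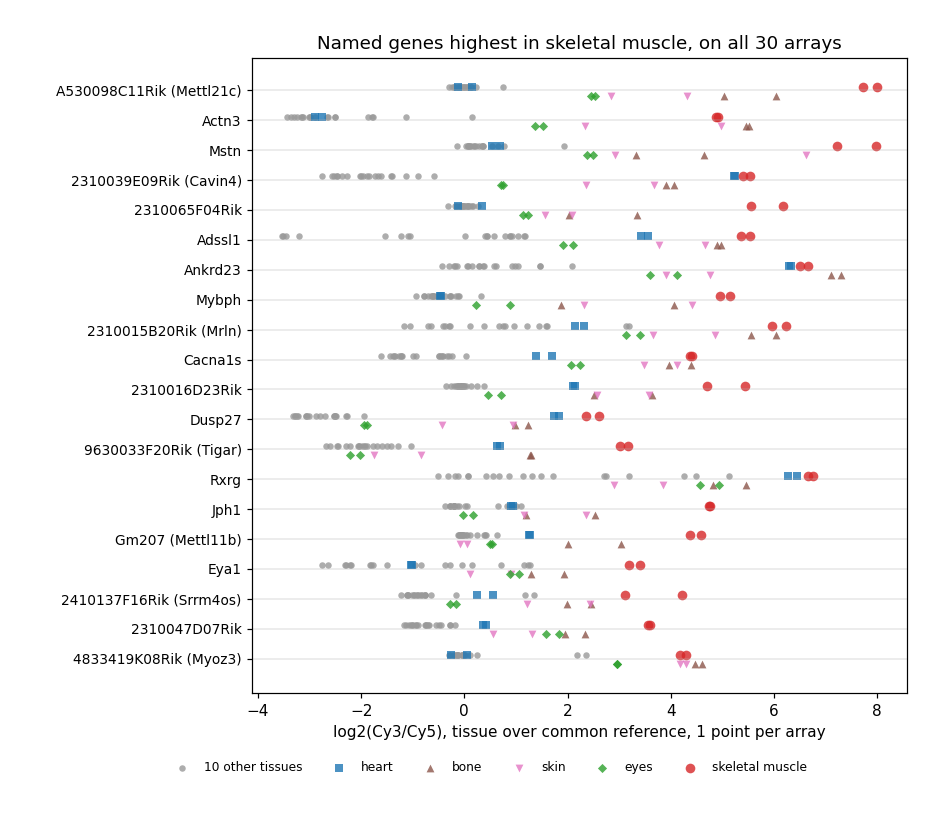
Each line is 1 of the 20 named genes with the largest difference among those whose muscle arrays lie above all 22 arrays of the 11 tissues. Points are the log2(Cy3/Cy5) of single arrays, with muscle in red, heart in blue, the 10 other tissues in grey and bone, skin and eyes in their own marks. For Mstn the red points sit at 7.23 and 7.98 and the grey ones reach 1.93, while for Cavin4 heart at 5.22 and 5.24 lies just below muscle.

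Genes of excitation-contraction coupling carried the highest list median, 4.54 over 5 probes past the filter of 56 genes listed. Cacna1s, the voltage sensor of the fibre membrane, stood at 4.37 and 4.41 in muscle and between -1.62 and 1.69 over the 22 arrays, with a median of -0.72. It differed by 5.03 ± 0.25 (adjusted p = 3.23e-11). 2310015B20Rik, now Mrln, encodes myoregulin, a small inhibitor of the calcium pump of the sarcoplasmic reticulum, and stood at 5.97 and 6.23.

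The highest of the 22 arrays for Mrln was 3.19, in cerebellum, and the difference was 5.40 ± 0.28 (adjusted p = 3.96e-11). Jph1, which holds the membrane and the reticulum together, stood at 4.74 and 4.76 with none of the 22 arrays above 1.1, and differed by 4.54 ± 0.24 (adjusted p = 5.67e-11). The other members lay lower. Ache, the acetylcholinesterase of the nerve-muscle contact, had a difference of 1.41 (adjusted p = 0.00643). Its muscle arrays, at 2.29 and 2.11, lay below those of cerebellum (2.86 and 3.02) and near those of brain cortex (2.21 and 2.09). The acetylcholine receptor subunit Chrnd had a difference of 0.32 (adjusted p = 0.00895) and was above background on 1 of the muscle arrays. Ache did not pass without muscle 1 (adjusted p = 0.0787) or with the slide fixed (adjusted p = 0.717), and Chrnd did not pass without muscle 1 (adjusted p = 0.051), without muscle 2 (0.11), with median centring (0.211) or with the slide as a block.

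Fuel supply formed a mixed group. Adssl1, the muscle enzyme of purine nucleotide cycling, stood at 5.37 and 5.53, against a median of 0.44 and a highest value of 3.55, in heart. Its difference of 5.58 ± 0.17 had the smallest adjusted p of any probe tested (2.27e-13). Prkag3, the glycogen-linked regulatory subunit of AMP-activated kinase in fast fibres, stood at 3.58 and 3.69 with at most 1.55 on the 22 arrays, in kidney, and was higher by 3.32 (adjusted p = 6.79e-10). They are among the 3 called higher of 10 listed energy genes with a symbol.

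The other 7 energy genes are enzymes of fatty acid oxidation or activation, and their differences from the 11 tissues ran from 0.78 to 1.69, each past the p threshold. The threshold was lost with the slide fixed by Acadm (0.16), Acsl1 (0.40), Acadl (0.38) and Hadhb (-0.53), and without muscle 2 by Acadl (adjusted p = 0.137), Hadhb (0.196) and Acads (0.165). Hadhb also lost it with scan day blocks, fixed (0.0695) or random (0.0819), and Acads from Cy3 levels alone (0.0982). None of the 7 had both muscle arrays above all 22. The dystrophin and sarcolemma list had 3 probes, with 2310039E09Rik, now Cavin4, a coat protein of muscle caveolae, at 6.7 ± 0.36 (adjusted p = 5.67e-11). Of the muscle wasting list, Cul3 (1.57) and Asb18 (1.35) passed the p threshold and Fbxo30 did not (0.50). With the slide fixed Cul3 turned to -0.78.

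Over the 6 muscle lists together, 49 of 50 probes with a symbol passed the filter, of 298 genes listed. Of these 49 probes, 23 were higher, none was lower, 45 passed the p threshold upwards, and 31 had both muscle arrays above all 22. Over all probes the shares were 3.9%, 4.41%, 21.2% and 7.55%. Their median difference was 1.63, beside -0.05 for all 5048 probes with a symbol.

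**Figure D3:**
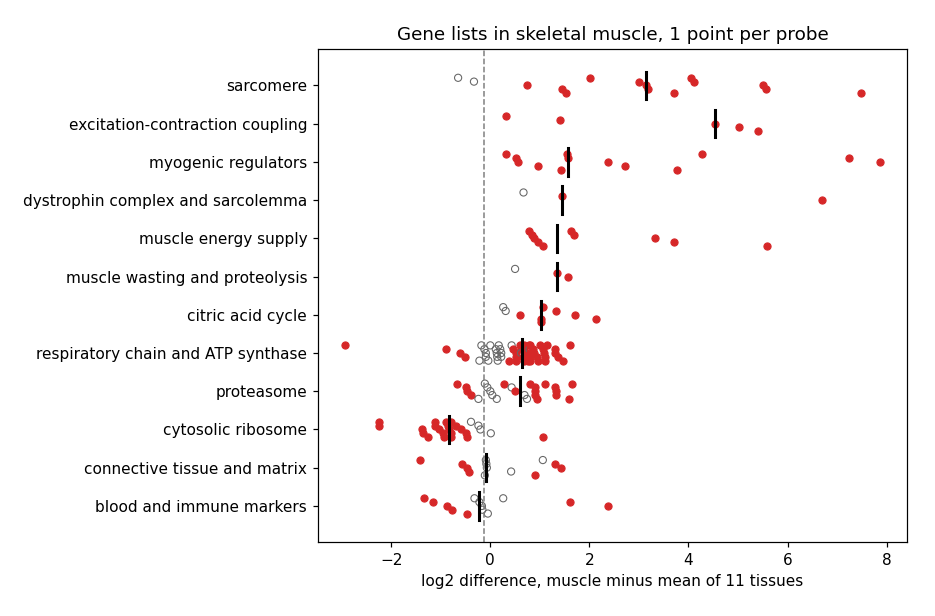
Each point is 1 probe of a gene list, placed by its log2 difference between muscle and the mean of 11 tissues (x axis). Filled red points passed an adjusted p of 0.05 and open points did not, black bars are list medians, and the dashed line is the median of all probes (-0.13). The sarcomere and coupling lists have medians of 3.14 and 4.54, and the ribosome list lies at -0.84.

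Differences of mitochondrial genes from the 11 tissues were smaller than those of the contractile lists. Of 56 respiratory chain and ATP synthase probes, 34 passed upwards and 4 downwards, beside 21.2% and 31.9% of all probes. Their median difference was 0.64, and the highest was Ndufb5 of complex I at 1.61. Without muscle 2, 21 passed upwards, and with median centring the median was 1.26. Citric acid cycle genes had a median of 1.03 over 9 probes, with 7 past the p threshold and Idh3a, a subunit of isocitrate dehydrogenase, called higher (2.14, and 0.85 and not passing with the slide fixed). Cox8a went the other way. This liver-type isoform of a cytochrome oxidase subunit stood at -2.43 and -2.32 in muscle, under all 22 arrays, which ran from -0.44 over 0.69 to 1.12. It was lower by -2.94 ± 0.11 (adjusted p = 2.08e-12), and in heart it stood at -0.41 and -0.44, at the low end of the 11 tissues. Cox8b, the isoform known from heart and skeletal muscle, was not analysed here.

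Cytosolic ribosome genes mostly passed in the other direction. Of 25 probes 20 passed downwards and 1, Arbp (now Rplp0), upwards, with a median of -0.84, and 12 had both muscle arrays below all 22. Over all probes the shares were 31.9%, 21.2% and 5.67%. Rpl41 stood at -4.01 and -4.06 and Rpl36a at -4.30 and -4.09, each with a difference of -2.25. These genes have many near-identical copies in the genome, so their probes are uncertain. With median centring in place of loess the list median was -0.14 and 7 probes passed downwards, and from Cy3 levels alone 9 did.

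Of 26 proteasome probes 13 passed upwards and 4 downwards (median 0.60), and 11 had both muscle arrays above all 22, beside 21.2%, 31.9% and 7.55% of all probes. Psmd8, a lid subunit of the regulatory particle, stood at 1.32 and 1.24 with none of the 22 arrays above 0.51, and differed by 1.65 (adjusted p = 6.58e-08). The 13 comprised 7 regulatory subunits of the Psmd series, the 4 ATPases Psmc2, Psmc3, Psmc5 and Psmc6, and the core subunits Psmb3 and Psmb7. The 4 downwards, Psma2, Psma5, Psma7 and Psmb4, belong to the core. With the slide as a fixed block, 4 of the 26 passed upwards and the list median turned to -0.13, and with median centring it was 1.15.

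Heart, the other striated muscle of the series, was the highest of the 11 for 426 (52%) of the 820 higher probes. How often heart is the highest over all probes tested was not counted. A direct comparison used an adjusted p under 0.05 and a difference of at least 1, and called 1266 probes (6.02%) higher and 1929 (9.18%) lower in skeletal muscle than in heart. Both comparisons use the same muscle arrays, and heart is part of the mean of 11. Of the 820 higher probes, 498 (60.7%) were also higher than heart, 304 (37.1%) passed in neither direction and 18 (2.2%) were lower.

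Of the 49 muscle list probes, 22 were higher than heart and 7 lower. Heart shares its slide with liver only, and no tissue links that slide to those of muscle. The fit with the slide fixed therefore cannot compare muscle with heart. With median centring or the scan day as a random block, 3 were lower. Those higher and above background on both heart arrays included Actn3 (7.72), Eya1 (4.32), Mrln (3.86), Jph1 (3.83) and Cacna1s (2.86). Mettl21c and Myog were above background on 1 of the heart arrays, and Mstn, Mybph and Myoz3 on neither, so their differences from heart have no exact size. Of the 13 myogenic regulators, 9 were higher than heart. Cavin4, Ankrd23 and Rxrg, high in muscle against the 11 tissues, were close to heart. Ankrd23, a stretch-responsive protein of the sarcomere, stood at 6.51 and 6.65 in muscle and 6.32 and 6.29 in heart, and the difference of 0.27 ± 0.26 did not pass (adjusted p = 0.564). Rxrg, a retinoid receptor, stood at 6.65 and 6.76 against 6.45 and 6.28 (0.35 ± 0.40, adjusted p = 0.666).

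The 7 lower than heart were Tnnt2 and 6 genes of fatty acid oxidation or activation. Tnnt2 was lower by -3.87 (adjusted p = 4.63e-06). Hadhb, a subunit of the trifunctional protein, stood at 2.30 and 2.80 in muscle and at a mean of 4.76 in heart, and was lower by -2.21 (adjusted p = 6.93e-05). The others were Acadl (-2.07), Acadm (-1.47), Acadvl (-1.33), Acsl1 (-1.11) and Acads (-1.10). Without heart 1, heart 2 or muscle 1 the count of muscle list probes lower than heart was 4. Of the 56 respiratory chain probes, 29 were lower than heart and none was higher (median -1.09), but with median centring 3 were lower and the median was -0.32.

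**Figure D4:**
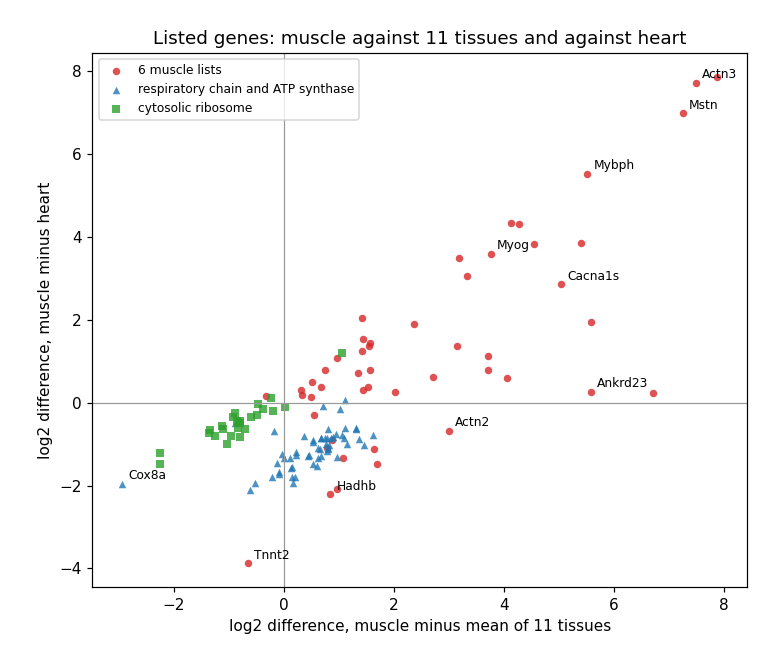
Each point is 1 probe, with its log2 difference from the mean of 11 tissues (x axis) and from heart (y axis). Red circles are the 6 muscle lists, blue triangles the respiratory chain and green squares the ribosome. Actn3 lies near the top right, at 7.72 above heart, and the heights of Mstn and Mybph are not exact, since their probes were not above background in heart. Ankrd23 lies near 0 on the heart axis and Tnnt2 lies at -3.87.

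Markers of other cells were read in the same fit. In bulk tissue, fewer cells of a type and less of its RNA per cell cannot be told apart. Blood and immune markers had 13 probes, of which 2 passed upwards (Cd28 at 2.38 and Ikzf2 at 1.60) and 5 downwards, near the 21.2% and 31.9% over all probes. Their mean level was -0.28 and -0.35 in muscle and ran from -0.97 to 1.02 over the 22 arrays.

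Connective tissue probes had a median of -0.08 (3 of 13 upwards and 4 downwards, again near the shares over all probes), with a mean level of -0.12 and -0.36 on the muscle arrays and -1.05 to 0.32 on the 22. None of 4 vessel and smooth muscle probes passed in either direction. Of 4 epithelial markers 3 passed downwards and 1 was called lower, beside 31.9% and 4.41% of all probes. Their median was -1.22 and their lowest difference -3.69. They had a mean level of -0.99 and -0.81 in muscle and of -1.96 to 3.18 on the 22. Fcor, the 1 fat marker, passed the p threshold downwards but not the size threshold (-1.22). Fhl2, the 1 heart marker, stood at 6.21 and 6.16 in heart and was lower in muscle than in heart by -9.47 (adjusted p = 1.6e-10). The part of such cells in the differences above was not tested.

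The lower probes had a median difference of -2.47, and 376 (40.6%) of the 927 had both muscle arrays below all 22, as did 1191 (5.67%) of all probes. For 217 of them the probe was not above background on either muscle array. Liver (165 probes) and small intestine (150) were most often the highest tissue for the lower probes, and the same count over all probes was not made. The 8 named genes with the largest such differences began with Abat, which breaks down the transmitter GABA, at -0.07 and 0.21 in muscle, between 1.11 and 6.95 over the 22 arrays and with a difference of -4.49 ± 0.18 (adjusted p = 2.48e-12).

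Next came 1190003J15Rik, now Urah, an enzyme of urate breakdown known from liver, at -4.36 and -4.31 and with a difference of -4.26. Lad1, an anchoring filament protein of epithelia, stood at -2.76 and -2.67 and differed by -3.72, and Rnf152, a ubiquitin ligase of the lysosome, stood at 1.33 and 1.35 and differed by -3.60. AI427122, now Pls1, the actin bundler of the intestinal brush border, was not above background in muscle, so no fold is given for it. The other 3 were Fam107b (-3.73), Shtn1 (-3.63) and A830073O21Rik (-3.51).

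Several genes followed Mstn over the 30 arrays. The highest Pearson r were those of Mybph (0.966), Mettl21c (0.960) and 5730409N16Rik (0.959), and Myog (0.929) and Actn3 (0.914) were among the first 10. These 30 points share the reference, hold 2 arrays per tissue and are led by the same few arrays, so they are a description.

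Bone, skin and eyes, left out of the mean, also held signal of muscle genes. Among the 20 named genes, the mean of bone lay above all 22 arrays for 17, that of skin for 13 and that of eyes for 9. Of these 20, bone exceeded the muscle mean for 3 genes, Actn3 (5.52 and 5.46), Ankrd23 (7.11 and 7.30) and Myoz3 (4.46 and 4.61). Outside the 20, Myl1 had means of 4.40 in bone and 4.25 in skin against 3.63 in muscle. Actn2 had 4.74 and 4.79 against 4.21. Tnni1 had 4.87 in bone and 1.67 in skin against 3.20, while Myog had 0.49 and 1.78 against 2.07. Mstn stood at 4.64 and 3.33 in bone, at 2.92 and 6.62 in skin and at 2.38 and 2.49 in eyes, and the skin arrays were thus far apart. Within the 11 tissues, bladder 1 and stomach 1 lay above their replicates for some muscle genes. Myoz3 stood at 2.35 on bladder 1 and -0.05 on bladder 2, and at 2.18 on stomach 1 and 0.11 on stomach 2. Myl1 stood at 1.80 and 0.03 in bladder and 1.96 and -0.02 in stomach, and Actn3 at 0.14 and -1.79 in bladder. The part of these arrays in the differences was not tested beyond leaving out each array. Against all 14 other tissues, 34 probes lay at least 2 above the highest tissue, in place of 123.

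**Figure D5:**
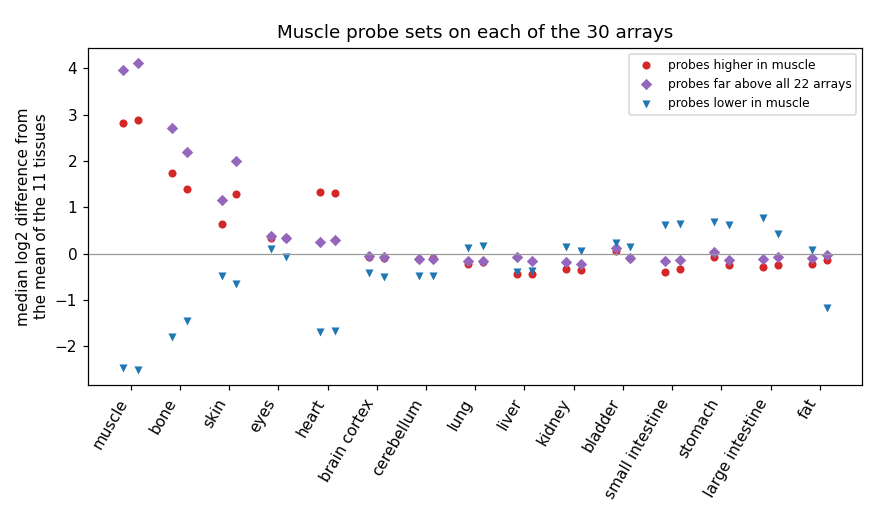
For each of the 30 arrays, grouped by tissue (x axis), points give the median log2 difference from the mean of 11 tissues (y axis) over the 820 higher probes (red), the 123 probes far above all 22 arrays (purple) and the 927 lower probes (blue). Muscle lies at 3.96 and 4.12 for the 123 probes, bone at 2.71 and 2.19, skin at 1.17 and 2.00, and heart at 0.26 and 0.30, while heart reaches 1.33 and 1.31 for the 820.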

How the data were processed

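RNA of 15 tissues was hybridised on 30 two-colour Agilent arrays, and the authors' scanner software was Agilent Feature Extraction 9.5.1.1. Each channel was deposited as an intensity in scanner units, as measured and as processed by that software, beside flags for outliers, saturation and signal above background (another kind of value). The authors' table of 25030 probes is on a log10 scale and, set against the scanner values, follows Cy3 corrected for how the reference varied between arrays. Probe positions were not used here. From the deposited intensities, background was corrected by normexp (offset 50), each array was normalised by loess with control and outlier spots at weight 0, and spots were averaged into log2(Cy3/Cy5) per probe. limma 3.58.1 in R 4.3.3 was fitted with 1 coefficient per tissue over all 30 arrays (15 residual and 2.95 prior degrees of freedom), with two-sided tests and Benjamini-Hochberg adjustment over 21019 probes. Of these, 167 lacked 1 or more values (185 in all), and the fit used the rest. The number of arrays limits the precision. The script was tested on simulated data.

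Symbols came from the study's supplementary probe lists and were updated by RefSeq names, which list 3479 of the 5621 named probes of the table as current and 1668 as synonyms. Named genes are the 20 with the largest difference among those called higher with both muscle arrays above all 22, the 8 with the largest negative difference among those called lower with both below all 22, the members of 17 gene lists, and the 10 probes most correlated with Mstn. The tissues left out, the members and the lists were chosen with earlier results of these data known. Alternatives changed the background correction, the normalisation, the filter, the thresholds, the tissues in the mean, slide, scan day and replicate blocks, and left out each array in turn. Some listed genes are not reported here.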

Additional observations from a re-analysis of the deposited data

Results flagged for a closer look

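Bone, skin and eyes were left out of the mean because muscle-like signal had been seen in them, so the values below describe that signal and are no independent observation of it. Over the 123 probes far above all 22 arrays, the median difference from the mean of the 11 tissues was 2.71 on bone 1 and 2.19 on bone 2. It was 1.17 on skin 1 and 2.00 on skin 2, and 0.39 and 0.35 on the eyes arrays. On the 22 arrays it did not exceed the 0.30 of heart 2, a limit that the choice of the 123 probes sets.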

How the results depend on the processing

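The count of 820 higher probes was 1303 from the processed signals of the scanner software, 1273 from the authors' table, 1304 over all noncontrol probes, 2270 and 353 at a size of at least 1 and 3, and 4464 with no size threshold. The count of 927 lower probes was, for the same settings other than the wider probe set, 1765, 1697, 3422, 200 and 6699, and it was 2215 with the slide and 1817 with the scan day as a fixed block. Those blocks moved the higher share of all calls from 46.9% to 33.3% and 32.6%. The 123 far probes became 192 over all noncontrol probes, 34 against 14 tissues and 279 without heart in the mean. Of muscle list probes, 23 higher became 35 at a size of 1 and 45 with no size threshold. The 22 higher than heart became 13 with the slide fixed. The 7 lower than heart became 3 with median centring, 4 with the slide random, and 4 and 3 with the scan day fixed and random. Leaving out 1 array at a time gave 801 to 851, 885 to 972, 117 to 136, 22 to 23, 16 to 22 and 4 to 8 for these 6 counts, in the order named. With the slide fixed, Psmd6 (-0.09), Cul3 (-0.78) and Hadhb (-0.53) reversed, and the cause was not tested. Muscle 1 is the only array of its slide among the tissues compared, so that fit rests on muscle 2. No tissue links the slides or scan days of brain, lung, liver, heart, kidney and bladder to those of muscle. Fits with either block fixed thus do not show how batch bears on these results. Of 3208 values over 73 named genes, 3175 kept their direction and side of the p threshold. Of the rest, 30 lost that threshold and 3 reversed. The size threshold was not part of this count, and settings that change it were left out. The 73 genes had passed the p threshold in the main fit, and many were chosen for large differences. Most values were thus likely to keep their side, and the count does not show how stable other probes are. With the replicate number as a block, all 820 and 927 calls were kept and the list counts did not change, while median centring kept 676 and 764, a fixed scan day 704 and 829, and a fixed slide 603 and 640. Equal numbers do not pair the arrays: over 105 pairs of tissues the correlation of deviations ran from -0.25 to 0.34, and 33 pairs exceeded 0.1. Signal over background limits the lower calls, of which 217 were not above background on either muscle array.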

Other observations

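Other named probes far above the 11 tissues have no role given here. 2310065F04Rik stood at 5.55 and 6.18 in muscle and at most at 0.34 on the 22 arrays (difference 5.86, limma adjusted p = 1.31e-12). 2310016D23Rik stood at 4.71 and 5.43, with heart at 2.11 and 2.15, and 2310047D07Rik at 3.55 and 3.60, with heart at 0.36 and 0.42. A830052D11Rik was higher than the 11 tissues by 3.70 and higher than heart by 5.36. Among genes known elsewhere, 9630033F20Rik, now Tigar, a regulator of glycolysis, stood at 3.02 and 3.17 with heart at 0.69 and 0.63 (difference from the 11 tissues 4.81, adjusted p = 4.26e-11), and 5430433E21Rik, now Kbtbd13, a protein of the sarcomere thin filament, was higher by 3.18. Dusp27, an atypical phosphatase, stood at 2.35 and 2.60 with heart at 1.73 and 1.84.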
